A study of Mus musculus with 8 samples.

Results

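The mitochondrial ribosomal proteins named Mrpl (large subunit) and Mrps (small subunit) were described in 2 sorted fractions of mouse esophageal epithelium. The members were all rows of the count table whose symbol is Mrpl or Mrps followed by a number and at most 1 letter a, b or c, which leaves out rows named as pseudogenes. This gave 78 of 55276 gene symbols, of which 49 were Mrpl and 29 Mrps. The rule uses symbols and no measured value, but it was chosen with earlier results of these data known.

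Bulk RNA sequencing was carried out on epithelial cells of the esophagus from C57BL6 mice aged 14 to 15 weeks, for which the labels name no genetic change or drug. Live cells were those that excluded DAPI and carried integrin beta-1, and they were parted by Cyto-ID, a dye taken up by autophagic vesicles, into Cyto-ID Low and Cyto-ID High. There were 8 libraries, 4 per fraction, and each of 4 animals (Female1, Female2, Male1, Male2) gave 1 library of each. The series asks how cells rich in autophagic vesicles differ from the rest, and the protocol calls both fractions basal cells.

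Mitochondrial ribosomes translate the few messages of the mitochondrial genome, all of which encode subunits of the respiratory chain and the ATP synthase. Their RNAs are transcribed in the mitochondrion, but every one of their proteins is encoded in the nucleus, made in the cytosol and imported. Some of these proteins have a counterpart in bacterial ribosomes and others are found only in mitochondria. Loss of single members impairs respiratory chain assembly in many tissues.

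The 4 Low libraries held 26285150 to 28599954 counts and the 4 High libraries 27486049 to 29301054, and 17344 genes passed the filter on low counts. All 8 markers of basal keratinocytes were lower and all 6 suprabasal markers higher in High. Summed over the list, basal markers stood at 20628 to 24516 CPM in Low and 2721 to 4390 in High, and suprabasal markers at 7925 to 23564 CPM in Low and 128883 to 222433 in High (CPM, normalised read counts, with library sizes adjusted by edgeR's trimmed mean). Krt5, Krt14 and the other basal markers were present in every library. The High library of Male2 stood apart, with the fewest detected genes of any library (22208, against 24820 to 28266 in the others) and the smallest scaling factor (0.679). It also had the least of 4 other cell types: summed leukocyte markers were 8.95 CPM there and 32.0 to 88.9 CPM in the other 7 libraries, fibroblast markers 36.6 against 147 to 479.9 CPM, endothelial markers 2.16 against 9.19 to 27.6 CPM, and muscle markers 4.68 against 21.2 to 67.0 CPM. Of the markers tested, 1 of 7 leukocyte genes was higher, and 1 of 6 fibroblast, 0 of 6 endothelial and 1 of 8 muscle genes were lower. Cd3e, Kdr, Myh2 and Myh4 were at 0 in at least 1 High library. Gastric markers, none of which passed the filter, summed to 115 CPM in High Female2, 18.6 CPM in Low Female2 and at most 1.03 CPM elsewhere. The part of these differences in the results on the mitochondrial ribosome was not tested, and in bulk RNA a smaller share of one kind of cell and less RNA per cell cannot be told apart.

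Of the 78 members, 77 passed the filter, with 42 to 2405 counts in a library. In High against Low, 23 rose and 10 fell past an adjusted p of 0.05 (edgeR quasi-likelihood test with Benjamini-Hochberg adjustment over all 17344 genes), and 44 passed in neither direction. The 33 members called were 42.9% of those tested, beside 48.7% of all genes tested. With relative log expression factors and with DESeq2, 32 rose and 8 fell, 51.9% of the members tested beside 48.8% and 49.6% of all genes, so that the members' share lay above that of all genes there and below it under the trimmed mean. Risers alone were 23 of 77, beside 23.4% of all genes tested, and fallers 10 of 77, beside 25.3%. The changes were small: under the trimmed mean fold changes ran from -0.74 to 1.00 on the log2 scale. There 0 members were both called and changed by 2-fold or more, whereas 4959 genes of the whole table were. With relative log expression factors and with DESeq2, 2 members were, beside 4910 and 4879 genes. Under total counts alone 9 members were, beside 6378 genes, and fold changes ran from -1.30 to 0.42. Without the High library of Male2, 17 members rose and 8 fell, 32.5% of those tested beside 45.2% of all genes. Without the High library of Male1, 25 rose and 6 fell, 40.3% beside 44.2% of all genes. The fallers lost there were Mrpl19, Mrpl9, Mrps16 and Mrps30, and of the risers Mrps6 was lost while Mrpl37, Mrpl4 and Mrps18a were added. With the animal as a replicate block, 30 rose and 16 fell, beside 25.4% and 28.5% of all genes tested in that fit (53.8% together, and 59.7% of members). All 33 calls remained, and Mrpl1, Mrpl12, Mrpl13, Mrpl2, Mrpl23 and Mrpl3 were added among the fallers. With no filter on low counts, 13 rose and 7 fell, 25.6% of the 78 members beside 46.8% of the 17344 genes.

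**Figure D1:**
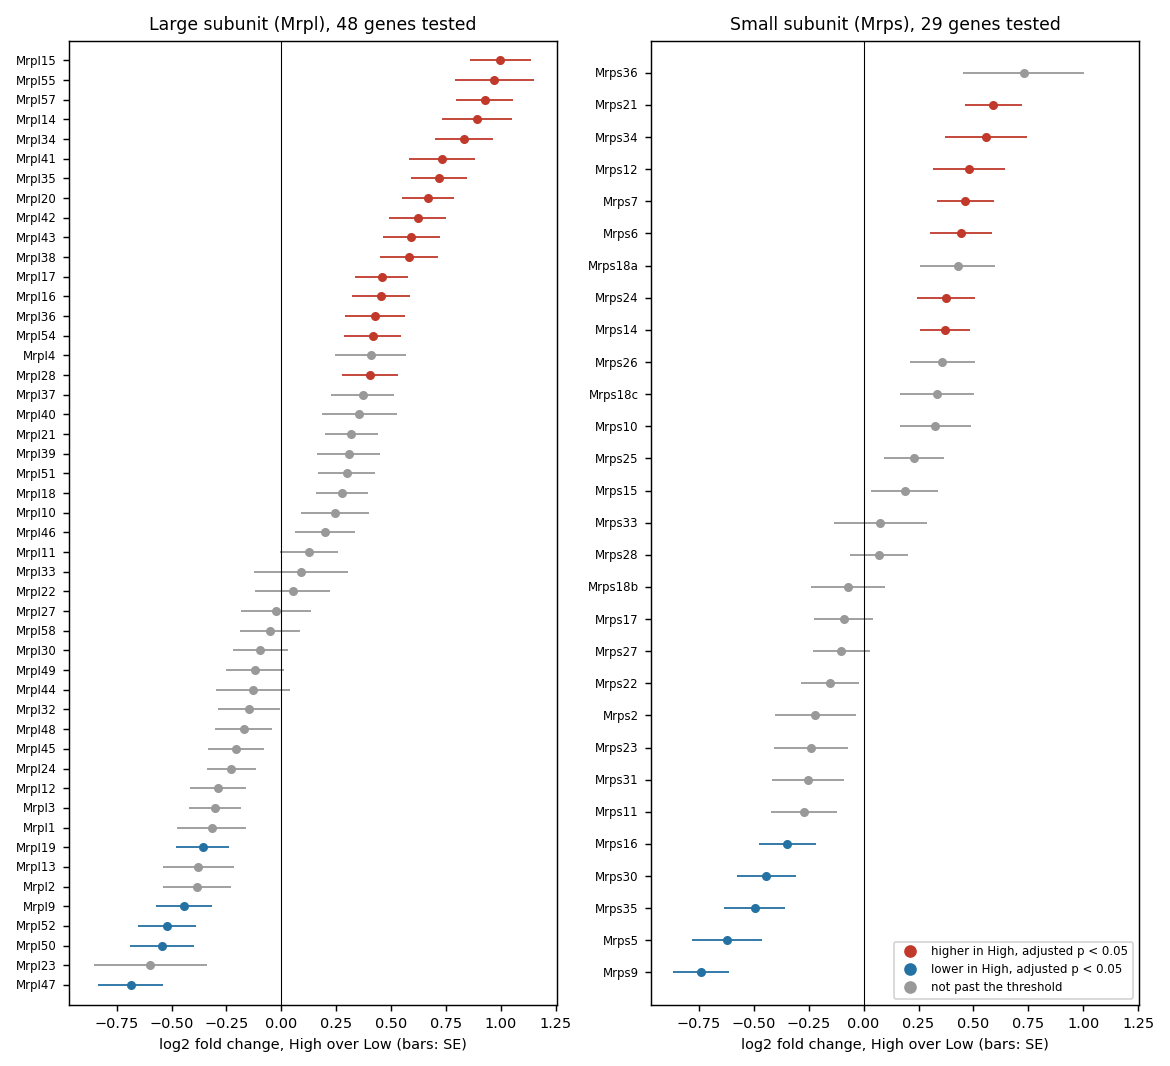
Log2 fold change of Cyto-ID High over Low (horizontal axis, trimmed-mean scaling) for each of the 48 large-subunit and 29 small-subunit members tested, ordered from highest to lowest, with bars of 1 SE from 8 libraries. Red marks the 23 that rose, blue the 10 that fell and grey the 44 past the threshold in neither direction. Scaled by total counts alone, only Mrpl15, Mrpl55 and Mrpl57 of the red points remained past the threshold as higher.

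The direction of many members depended on how the libraries were scaled. The trimmed mean assumes that most genes do not change, and it gave factors of 1.16 to 1.304 in Low and 0.679 to 0.944 in High. With total counts alone the median of all genes moved by -0.55 on the log2 scale, and 3 members rose and 38 of 77 fell, beside 12.6% of all genes tested that rose and 49.1% that fell (61.7% together) under the same scaling. Across the trimmed mean, the relative log expression factors and total counts, 3 members were called higher each time (Mrpl15, Mrpl55 and Mrpl57) and 8 were called lower each time (Mrps9, Mrpl47, Mrps5, Mrpl50, Mrpl52, Mrps35, Mrpl9 and Mrps30). A further 10 were above 0 and 23 below 0 in all 3 scalings without a call in each, and for 33 the sign changed with the scaling. The share of all counts assigned to the members was 0.199% ± 0.0115 in Low and 0.148% ± 0.0146 in High (SD, n = 4 each), lower in High, while their summed CPM was 1635 ± 15.3 in Low and 1804 ± 101 in High, higher in High.

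**Figure D2:**
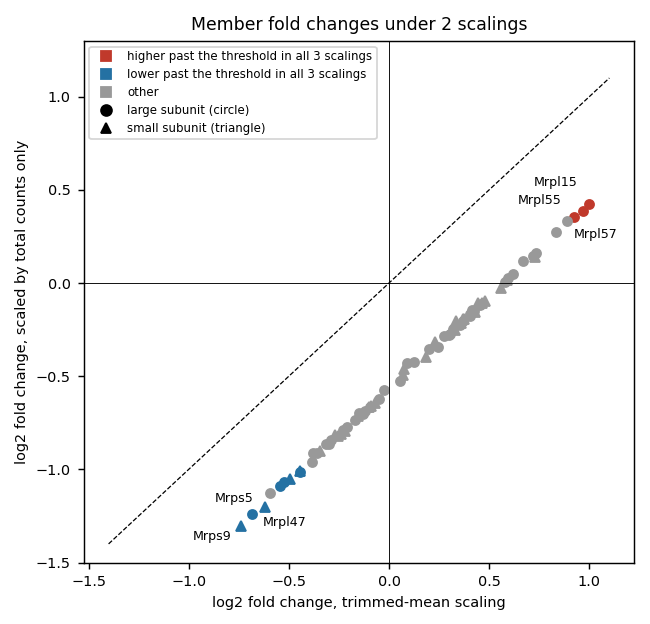
Each point is 1 of the 77 members, with its log2 fold change of High over Low under trimmed-mean scaling (horizontal axis) and under scaling by total counts alone (vertical axis). All points lie below the dashed line of equal values, by about the shift of -0.55 in the median of all genes. Red marks Mrpl15, Mrpl55 and Mrpl57, called higher in all 3 scalings, and blue the 8 members called lower in all 3. Many grey members also keep 1 sign on both axes, without a call in each scaling.

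The 2 subunits were set against each other within each library, where the scaling factor cancels almost entirely. The mean log2 CPM of the large-subunit members minus that of the small-subunit members was 0.446, 0.408, 0.413 and 0.460 in the Low libraries of Female1, Female2, Male1 and Male2, and 0.535, 0.491, 0.565 and 0.507 in their High libraries. All 4 High libraries were above all 4 Low libraries. The difference rose in each animal, by 0.0893 and 0.0830 in the females and by 0.152 and 0.0467 in the males, with a mean of 0.0927 ± 0.0436 (SD, n = 4). That SD is a spread between animals and not between genes. Fold changes of single members had quartiles of -0.21 and 0.45 in the large subunit and -0.24 and 0.38 in the small. Large-subunit members made up 69.1% ± 0.401 of the members' CPM in Low and 70.4% ± 0.326 in High. No p is given for this score, because the members were chosen with earlier results of these data known.

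**Figure D3:**
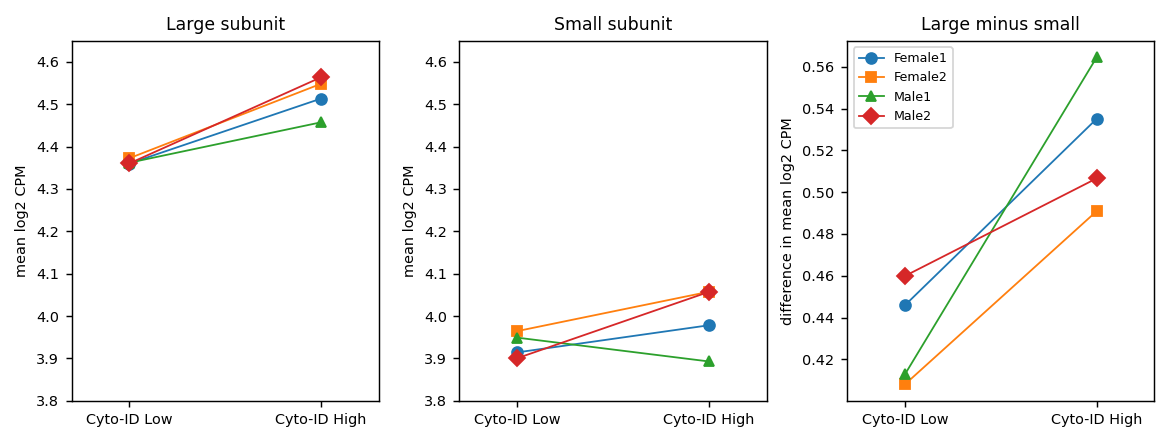
Mean log2 CPM of the large-subunit members (left), of the small-subunit members (middle) and their difference (right) in the Cyto-ID Low and High libraries, with 1 line per animal. The difference rose from 0.408 to 0.460 in Low to 0.491 to 0.565 in High in all 4 animals, while the left and middle panels depend on the trimmed-mean scaling.

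Under that scaling, 16 of the 48 large-subunit members tested rose and 5 fell, with a median log2 fold change of 0.22, where total counts alone gave 3 higher, 23 lower and a median of -0.35. Of the 29 small-subunit members, 7 rose and 5 fell, with a median of 0.08, where total counts alone gave 0 higher, 15 lower and a median of -0.46. Together, 43.8% of the large-subunit and 41.4% of the small-subunit members were called, beside 48.7% of all genes tested (23.4% higher and 25.3% lower). Under total counts alone the shares were 54.2% and 51.7%, beside 61.7% of all genes (12.6% higher and 49.1% lower). With 1 library left out, 12 to 18 large-subunit members rose and 3 to 5 fell, the lowest count of fallers without High Male1. In the small subunit 2 to 7 rose and 3 to 5 fell, with medians of 0.04 to 0.14. There 2 rose without High Female2, 3 without Low Female1 or Low Male1, 4 without High Female1 and 5 without Low Male2 or High Male2. Only 3 small-subunit members fell without Low Female2 or any 1 of the 4 male libraries. Over these fits, 35.4% to 43.8% of large-subunit and 20.7% to 34.5% of small-subunit members were called, beside 41.5% to 46.2% of all genes. With the animal as a replicate block, 20 large-subunit members rose and 11 fell, and 10 small-subunit members rose and 5 fell. That was 64.6% and 51.7% of them, beside 53.8% of all genes. With no filter on low counts, 11 large-subunit members rose and 4 fell, and 2 small-subunit members rose and 3 fell. These shares were 30.6% and 17.2%, beside 46.8% of the 17344 genes. In the main fit the median of all genes tested was -0.09. Names do not always give the place in the ribosome: structural work puts Mrps30 and Mrps18a in the large subunit and finds Mrps36 in the ketoglutarate dehydrogenase complex. Sorted by structure, 16 of 50 large-subunit members rose and 6 fell, and 7 of 26 small-subunit members rose and 4 fell. That was 44.0% and 42.3% called, beside 48.7% of all genes tested. Among the 46 members with a bacterial counterpart, 16 rose and 6 fell, with a median of 0.16, and among the 30 tested members found only in mitochondria, 7 rose and 4 fell, with a median of 0.14; under total counts alone these medians were both -0.41.

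**Figure D4:**
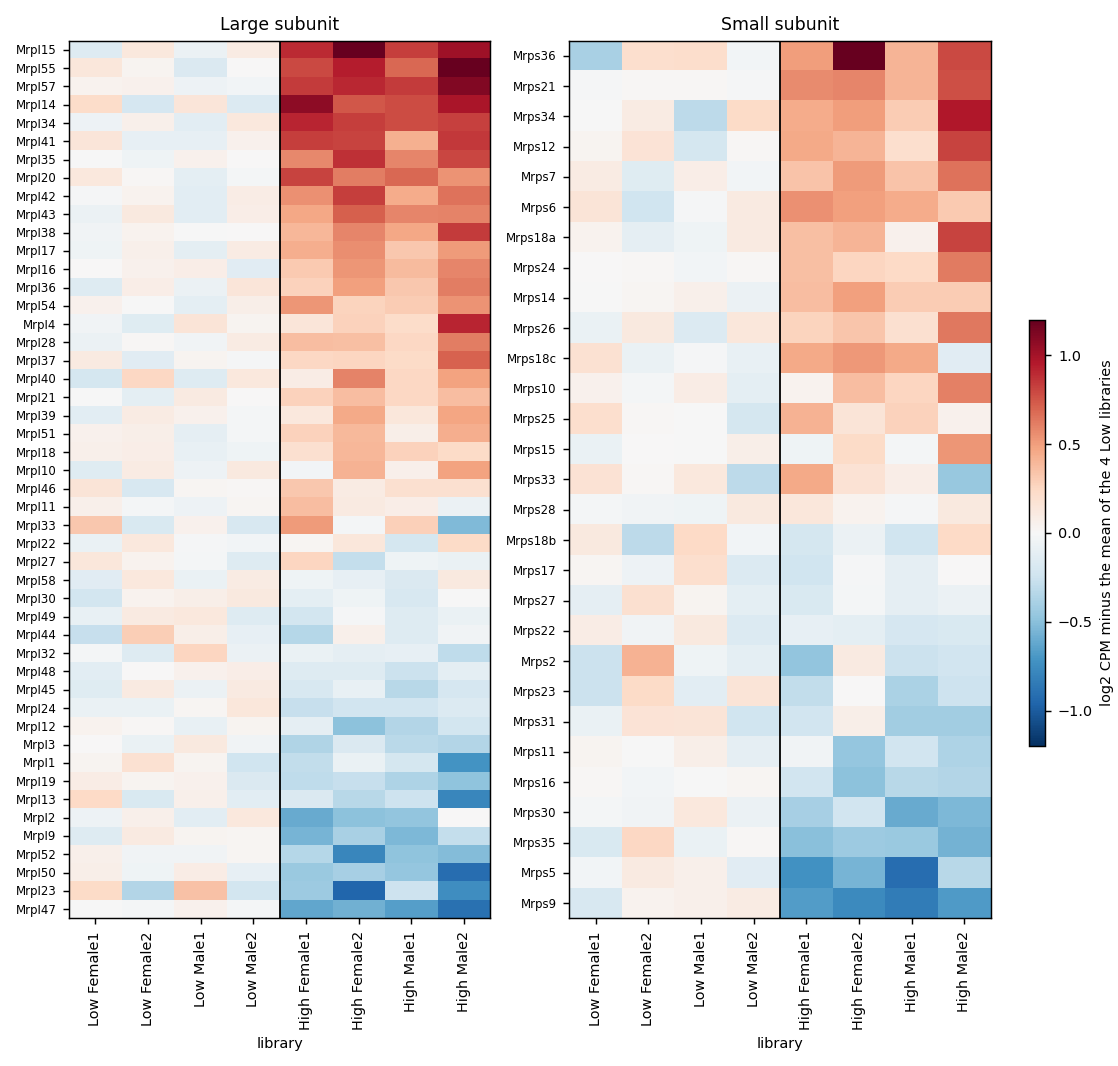
Log2 CPM of each member in each of the 8 libraries minus the mean of the 4 Low libraries (colour scale, trimmed-mean scaling), with members ordered by fold change within the large (left) and small (right) subunit. The vertical line parts Low from High, and the members at the top, such as Mrpl15 and Mrps21, are above their Low mean in all 4 High libraries and those at the bottom, such as Mrpl47 and Mrps9, below it. Shifts of colour common to all rows depend on the scaling.

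Values per library are given in the order Female1, Female2, Male1, Male2, and positions are those of the GENCODE release M21 annotation of GRCm38. Among members of the large subunit that have a bacterial counterpart, Mrpl15 (chr1:4773206-4785739) rose most. It stood at 21.9, 26.5, 23.1 and 26.1 CPM in Low and 45.3, 57.3, 43.4 and 49.3 CPM in High. All High libraries were above all Low libraries (log2 fold change 1.00, SE 0.14, adjusted p = 0.000279, edgeR quasi-likelihood). Of all counts assigned to members, Mrpl15 took 1.49% ± 0.13 in Low and 2.704% ± 0.27 in High (SD, n = 4 each), a ratio that needs no scaling factor. Mrpl14 (chr17:45686322-45698495), a protein at the face that meets the small subunit, was at 14.3, 10.7, 13.5 and 10.96 CPM in Low and 25.9, 20.6, 21.1 and 24.2 CPM in High. Its High libraries all lay above its Low libraries (log2 fold change 0.89, SE 0.16, adjusted p = 0.00118), and under total counts alone it kept its sign at 0.33 without passing the threshold. Exons of Mrpl14 share 11.2% of their bases with Tmem63b on the other strand, and the strandedness of the counting is not given in the sources used here.

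Mrpl55 and Mrpl57, the latter found only in mitochondrial ribosomes, were the other large-subunit members among the 4 that rose most. Mrpl55 (chr11:59202486-59206134) was measured at 11.6, 10.8, 9.35 and 10.6 CPM in Low and 18.3, 20.3, 16.97 and 27.6 CPM in High. The highest value was that of High Male2, and no High library reached down to the Low libraries (log2 fold change 0.97, SE 0.18, adjusted p = 0.00162). Mrpl57 (chr14:57826234-57829296) was at 15.7, 15.8, 14.6 and 14.9 CPM in Low and 27.3, 28.5, 27.2 and 32.9 CPM in High. Both fractions were tight, and they did not overlap (log2 fold change 0.92, SE 0.13, adjusted p = 0.000263). Its share of the members' counts went from 0.933% ± 0.037 to 1.60% ± 0.077. Mrpl41 (chr2:24974117-24975098), another protein found only in mitochondria, stood at 10.9, 9.24, 9.26 and 10.3 CPM in Low and 17.6, 17.4, 13.3 and 17.8 CPM in High. It rose as well (log2 fold change 0.73, SE 0.15, adjusted p = 0.00267), with the High library of Male1 below the other High libraries but above every Low library, and stayed above 0 under total counts alone at 0.16. Mrpl54, also without a bacterial counterpart, was at 20.6, 19.9, 18.4 and 20.9 CPM in Low and 28.8, 24.03, 24.7 and 29.02 CPM in High. It rose under the trimmed mean (log2 fold change 0.42, SE 0.13, adjusted p = 0.0242) and was at -0.14 under total counts alone, and the call was lost without Low Female1, High Female1, Low Male1 or High Male2, and with no filter on low counts.

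Of the large-subunit members that fell, Mrpl47 (chr3:32725397-32737605), which sits by the exit of the peptide tunnel and has a bacterial counterpart, fell most. It stood at 9.79, 9.65, 10.2 and 9.69 CPM in Low and 6.37, 6.57, 6.22 and 5.30 CPM in High. The Low libraries were within a narrow band and all High libraries lay beneath it (log2 fold change -0.69, SE 0.15, adjusted p = 0.00359). Its exons share 13.9% of their bases with Ndufb5 and 10.2% with Actl6a, both on the other strand. Mrpl9 (chr3:94443318-94451130), with a bacterial counterpart, was the most highly counted of the fallers at 55.2, 66.1, 62.8 and 62.4 CPM in Low and 41.7, 47.1, 42.2 and 50.4 CPM in High. High libraries were all lower (log2 fold change -0.44, SE 0.13, adjusted p = 0.0159), and it took 3.77% ± 0.25 in Low and 2.51% ± 0.11 in High of the members' counts. Without High Male1 it did not pass the threshold.

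Mrpl50 and Mrpl52 are proteins of the large subunit found only in mitochondria. Mrpl50 (chr4:49512596-49521093) was at 25.6, 23.6, 25.97 and 22.8 CPM in Low and 18.02, 18.5, 17.8 and 13.02 CPM in High. The High library of Male2 was lowest, and the fractions did not overlap (log2 fold change -0.55, SE 0.15, adjusted p = 0.0114). Mrpl52 (chr14:54426909-54429756) was at 38.4, 35.6, 35.7 and 37.3 CPM in Low and 29.1, 21.4, 26.2 and 25.7 CPM in High. It too was lower in every High library (log2 fold change -0.52, SE 0.13, adjusted p = 0.0087). Mrpl47, Mrpl9, Mrpl50 and Mrpl52 were called lower under each of the 3 scalings.

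The stalk of the large subunit, which recruits translation factors, is formed by Mrpl10 and Mrpl12 on a base that holds Mrpl11. None of the 3 passed the threshold under the trimmed mean, while under total counts alone Mrpl12 (-0.84) and Mrpl10 were called lower. Mrpl12, which also binds the mitochondrial RNA polymerase, stood at 51.2, 50.2, 46.9 and 50.9 CPM in Low and 46.1, 35.3, 38.9 and 42.7 CPM in High. Its fractions did not overlap, with High below Low (log2 fold change -0.29, SE 0.13, adjusted p = 0.0911), and with the animal as a replicate block the adjusted p was 0.0495. Mrpl10 was at 29.3, 34.8, 31.03 and 35.1 CPM in Low and 31.8, 43.3, 33.9 and 45.3 CPM in High, with overlapping fractions (log2 fold change 0.24, SE 0.15, adjusted p = 0.23; -0.34 under total counts alone). Mrpl11 was at 16.99, 15.9, 15.6 and 16.5 CPM in Low and 20.95, 17.5, 17.2 and 15.4 CPM in High, also overlapping (log2 fold change 0.12, SE 0.13, adjusted p = 0.484; -0.42 under total counts alone).

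Mrpl58 and Mrpl44 carry folds of enzymes. Mrpl58, a peptidyl-tRNA hydrolase that frees stalled ribosomes, was at 15.8, 19.00, 16.4 and 18.6 CPM in Low and 16.8, 16.2, 15.4 and 18.9 CPM in High. The fractions overlapped (log2 fold change -0.05, SE 0.14, adjusted p = 0.793). Mrpl44, which resembles an RNase III, was at 13.2, 19.7, 16.9 and 15.03 CPM in Low and 12.7, 16.8, 14.4 and 15.6 CPM in High. Its values overlapped too (log2 fold change -0.13, SE 0.17, adjusted p = 0.581), and neither gene passed the threshold under the trimmed mean. Under total counts alone both were called lower, Mrpl58 at -0.62 and Mrpl44 at -0.70.

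Among the small-subunit members that passed the threshold, the largest rises were those of Mrps21, Mrps34, Mrps12 and Mrps7. Mrps21 (chr3:95862634-95871519), with a bacterial counterpart, stood at 16.4, 16.8, 16.8 and 16.4 CPM in Low and 24.5, 24.9, 22.1 and 28.4 CPM in High. The Low libraries were nearly equal and all High libraries lay above them (log2 fold change 0.59, SE 0.13, adjusted p = 0.004), although under total counts alone the value was 0.02 and did not pass. Its share of the members' counts was 1.01% ± 0.0076 in Low and 1.38% ± 0.073 in High. Mrps34 (chr17:24895116-24897502), found only in mitochondria and needed for a stable small subunit, was at 13.00, 13.97, 10.5 and 15.3 CPM in Low and 17.8, 18.5, 16.2 and 25.5 CPM in High. It rose under the trimmed mean (log2 fold change 0.56, SE 0.19, adjusted p = 0.0328) and was at -0.02 under total counts alone, and 37.0% of its exon bases are shared with Nme3 on the same strand and 63.4% with Mapk8ip3 on the other. Its call was lost without Low Female1, High Female2, Low Male1 or High Male2.

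Mrps12 (chr7:28739641-28741820), a protein of the decoding centre, was at 14.8, 16.2, 12.6 and 14.6 CPM in Low and 19.9, 19.2, 16.7 and 25.4 CPM in High. The lowest High library, Male1, was close to the highest Low library (log2 fold change 0.48, SE 0.17, adjusted p = 0.0362), and the value was -0.10 under total counts alone. The call on Mrps12 was lost without any 1 of Low Female1, High Female1, High Female2, Low Male1, Low Male2 and High Male2. Mrps7 (chr11:115603925-115608036), a protein of the small subunit's head, was at 39.9, 33.6, 39.5 and 36.6 CPM in Low and 47.3, 53.1, 47.2 and 58.7 CPM in High. All High libraries were above the Low libraries under the trimmed mean (log2 fold change 0.46, SE 0.13, adjusted p = 0.0145), with -0.11 under total counts alone. The calls on both Mrps12 and Mrps7 were lost with no filter on low counts.

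Mrps9 (chr1:42851233-42905683), which has a bacterial counterpart, fell more than any other member. It stood at 28.01, 33.02, 33.3 and 34.2 CPM in Low and 20.2, 18.9, 17.9 and 19.96 CPM in High. The High libraries were close together and all were below the lowest Low library (log2 fold change -0.74, SE 0.13, adjusted p = 0.000937), and its share of the members' counts was 1.96% ± 0.16 in Low and 1.07% ± 0.055 in High. Mrps5 (chr2:127587222-127606829), which lies near the entrance for messenger RNA, was at 19.1, 21.03, 20.4 and 17.8 CPM in Low and 11.8, 13.3, 10.4 and 15.5 CPM in High. High libraries were all lower, with Male2 the nearest to Low (log2 fold change -0.62, SE 0.16, adjusted p = 0.00949). Mrps35 (chr6:147042764-147073991), found only in mitochondria, was at 19.4, 26.2, 20.8 and 22.3 CPM in Low and 15.6, 16.3, 16.2 and 14.9 CPM in High. It fell without overlap (log2 fold change -0.50, SE 0.14, adjusted p = 0.0147), and the call was lost without the Low library of Female2 or that of Male2. Mrps30 (chr13:118378381-118387252), the protein that structures place in the large subunit, was at 21.5, 21.3, 23.9 and 20.8 CPM in Low and 16.5, 18.6, 14.3 and 15.02 CPM in High. It fell (log2 fold change -0.44, SE 0.14, adjusted p = 0.0214), and the call was lost without Low Male1, High Male1 or High Male2, and with no filter on low counts. All 4 were called lower under each of the 3 scalings.

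Mrps18 is encoded by 3 genes whose products occupy different places in the ribosome. Mrps18a, placed in the large subunit, was at 18.1, 16.3, 16.96 and 18.99 CPM in Low and 22.6, 23.3, 18.2 and 30.8 CPM in High, Mrps18b, in the small subunit, at 13.6, 10.1, 14.8 and 12.3 CPM in Low and 10.9, 11.9, 10.6 and 14.9 CPM in High, and Mrps18c, the closest to the bacterial protein, at 10.9, 9.07, 9.47 and 9.03 CPM in Low and 13.1, 13.8, 13.1 and 8.69 CPM in High. The fractions overlapped for all 3 genes. None passed the threshold (log2 fold change 0.43, SE 0.17, adjusted p = 0.0638 for Mrps18a; log2 fold change -0.07, SE 0.17, adjusted p = 0.772 for Mrps18b; log2 fold change 0.34, SE 0.17, adjusted p = 0.13 for Mrps18c), and with the replicate block Mrps18a had an adjusted p of 0.0284. Without High Male1 Mrps18a passed it, at 0.56, and without High Male2 Mrps18c passed it, at 0.46. Under total counts alone Mrps18b was called lower, at -0.65. Mrps36 was at 1.297, 1.95, 1.96 and 1.66 CPM in Low and 2.39, 3.87, 2.25 and 2.93 CPM in High, higher in all 4 animals and without overlap (log2 fold change 0.73, SE 0.28, adjusted p = 0.0522; with the replicate block 0.0317).

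The other 13 members that rose under the trimmed mean were Mrpl34, Mrpl35, Mrpl20, Mrpl42, Mrpl43, Mrpl38, Mrpl17, Mrpl16, Mrpl36 and Mrpl28 of the large subunit and Mrps6, Mrps24 and Mrps14 of the small subunit. Their fold changes ran from 0.37 for Mrps14 to 0.83 for Mrpl34. Mrpl34, a small protein with a bacterial counterpart, went from 9.25 ± 0.729 to 16.5 ± 0.634 CPM and Mrpl38 from 32.7 ± 0.767 to 49.00 ± 6.84 CPM (SD, n = 4 each). The calls on Mrpl16, Mrpl28, Mrpl36, Mrps6, Mrps14 and Mrps24 were each lost without at least 1 library. The other 2 that fell were Mrpl19 (-0.36, adjusted p = 0.033) and Mrps16 (-0.35, adjusted p = 0.0481), and these calls too were lost without several of the libraries. Both were also lost with relative log expression factors, with DESeq2 and with no filter on low counts, and that on Mrps16 also with a minimum of 10 counts per library. All 33 called members had fractions that did not overlap, and so did 9 that were not called; the 42 are 54.5% of the members, beside 48.6% of all genes tested. Under the trimmed mean all 4 animals had a higher value in High in 37 members (48.1%, beside 29.8% of all genes tested) and a lower value in 24 (31.2%, beside 34.4%). Under total counts alone these counts were 6 (7.79%, beside 15.7%) and 54 (70.1%, beside 59.8%).

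Per kilobase of annotated exon, the highest levels over all 8 libraries were those of Mrpl12 (29.5 CPM per kilobase), Mrpl54 (28.3), Mrps21 (28.1), Mrpl52 (28.1), Mrpl24 (22.1) and Mrps7 (21.5). In the small subunit Mrps12 followed with 16.7 CPM per kilobase. The lowest were Mrpl53 (0.0475 CPM per kilobase), Mrpl23 (0.660) and Mrps10 (1.12). Of the 6 at the top, Mrpl54, Mrps21 and Mrps7 rose under the trimmed mean, Mrpl52 fell and Mrpl12 and Mrpl24 did not pass the threshold. The order differed between the fractions. In Low, Mrpl52 (33.2 CPM per kilobase) and Mrpl12 (32.5) came first and Mrps21 (22.5) was in place 6. In High, Mrps21 (33.8) and Mrpl54 (32.3) came first, Mrpl34 (27.1) and Mrpl12 (26.6) followed, and Mrpl52 (23.1) was in place 9. Neighbours in these orders were not tested against each other. Mrpl53 was the only member left out by the filter, with 0 to 3 counts in a library, and 88.0% of its exon bases are shared with the same-strand gene Gm42688, which itself had 3 to 35 counts.

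The median length of the longest annotated transcript was 1134 bases for the 23 risers, 2968 bases for the 10 fallers and 2034.5 bases for the 44 not called. The groups overlapped widely, from 488 to 7300 bases for the risers and from 856 to 5000 for the fallers, and Mrpl15, which rose most, has 4600 bases. Over the 77 members the fold change and the log of that length had a Spearman rho of -0.32 (Pearson r -0.31), over the 29 small-subunit members -0.47 and over the 48 large-subunit members -0.24, while over 13492 protein-coding genes tested rho was -0.08. For GC content rho was 0.26 over the members and 0.08 over those protein-coding genes. These points are genes of the same 8 libraries and are not independent replicates, and the part of length in the calls was not tested.

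Reads of several members could also have come from near-identical pseudogenes. A search of the annotation found 18 members with at least 1 pseudogene of 95% identity or more over 50% or more of the pseudogene's length, and for 12 of them the copies held over 10% of the counts of gene and copies together. The shares were 87.5% for Mrpl23 (Mrpl23-ps1), 77.0% for Mrps33 (Gm5776), 76.4% for Mrps36 and its 4 copies, 50.9% for Mrpl48, 41.4% for Mrps18b and 37.6% for Mrps5. Exons of 33 members also overlap another gene, for 28 on the other strand and for 8 on the same strand. Values of these members are uncertain to an unknown extent. Mrps33 and Gm5776 are shown because 1 substitution in 321 bases parts them, G171A, with the base of Mrps33 first and positions counted from the first base of its coding sequence. The stretches below run from position 111 to 230 (GENCODE release M21), 5′ to 3′, and the capital marks the base that differs.
Mrps33: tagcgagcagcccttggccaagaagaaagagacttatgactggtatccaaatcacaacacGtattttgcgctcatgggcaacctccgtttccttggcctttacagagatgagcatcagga
Gm5776: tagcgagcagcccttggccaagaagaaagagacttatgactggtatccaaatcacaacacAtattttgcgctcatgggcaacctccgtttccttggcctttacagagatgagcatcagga

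A read that lies within those 321 bases, of the 1107 bases of the Mrps33 transcript, and does not cover that base fits both. The Mrps33 row stood at 5.00, 4.48, 4.85 and 3.56 CPM in Low and 6.10, 5.01, 4.69 and 3.24 CPM in High, overlapping between fractions (log2 fold change 0.08, SE 0.21, adjusted p = 0.804), and the Gm5776 row at 14.6, 15.1, 14.3 and 14.9 CPM in Low and 17.3, 17.6, 16.6 and 14.3 CPM in High (log2 fold change 0.16, SE 0.13, adjusted p = 0.335). The row of Mrpl23-ps1 was at 25.6, 25.1, 26.7 and 30.9 CPM in Low and 18.6, 17.3, 17.4 and 19.7 CPM in High and fell (log2 fold change -0.57, SE 0.13, adjusted p = 0.00414), while the Mrpl23 row, at 4.45, 2.97, 4.85 and 3.26 CPM in Low and 2.82, 1.96, 3.20 and 2.26 CPM in High, did not pass (log2 fold change -0.60, SE 0.26, adjusted p = 0.0832; with the replicate block 0.0227). With the copies summed into their member, an alternative added after the data were seen, 25 members rose and 11 fell, 46.8% of those tested beside 48.7% of all genes: Mrpl21, Mrpl51 and Mrpl23 were added and no call was lost. Summed with its copies, Mrps36 had a log2 fold change of 0.33 in place of 0.73, and Mrps5 -0.65 in place of -0.62.

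Promoters of 69 members were found in RefSeq (GRCm38.p6), each running from 250 bases before to 50 bases after the start of the gene. They were searched on both strands for 5 motifs: the ETS motif CCGGAAG (bound by factors such as Gabpa), the NRF1 motif GCATGCGC, the YY1 motif AAGATGG, the E-box CACGTG and the TATA motif TATAAA. The ETS and YY1 motifs share the letters AAG, so that 1 stretch can hold both. The ETS motif was in 26 of 69 members (37.7%), 18.6% of 11257 tested genes and 9.93% of all 27025 promoters of that length. The NRF1 motif was in 11.6% of members, 5.53% of tested genes and 3.05% of all promoters, and the YY1 motif in 18.8%, 7.90% and 7.28%. The E-box was in 7.25%, 11.3% and 8.09%, and the TATA motif in 7.25%, 9.70% and 15.7%. Among members that rose, 6 of 19 held the ETS motif, and among those that fell, 2 of 8. A match is a run of letters and shows no binding.

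The 250 bases before the start are printed for the 2 members that rose most and the 1 that fell most with an ETS match in them, so chosen after their values were seen. Each is 5′ to 3′ on the gene's strand, and capitals mark matches to the ETS motif on either strand and, in Mrpl52, also the YY1 match. Mrpl34 lies at chr8:71464676-71464925 on the plus strand, Mrpl43 at chr19:45006443-45006692 on the minus strand and Mrpl52 at chr14:54426659-54426908 on the plus strand.
Mrpl34: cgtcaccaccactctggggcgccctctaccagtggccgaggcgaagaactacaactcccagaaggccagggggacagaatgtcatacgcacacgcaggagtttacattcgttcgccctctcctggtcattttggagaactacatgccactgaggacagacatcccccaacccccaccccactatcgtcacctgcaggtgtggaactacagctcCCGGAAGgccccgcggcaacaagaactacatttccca
Mrpl43: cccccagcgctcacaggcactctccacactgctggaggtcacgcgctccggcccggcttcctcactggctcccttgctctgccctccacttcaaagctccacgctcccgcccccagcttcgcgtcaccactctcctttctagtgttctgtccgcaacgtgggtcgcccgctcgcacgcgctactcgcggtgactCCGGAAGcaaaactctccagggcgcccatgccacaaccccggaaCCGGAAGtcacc
Mrpl52: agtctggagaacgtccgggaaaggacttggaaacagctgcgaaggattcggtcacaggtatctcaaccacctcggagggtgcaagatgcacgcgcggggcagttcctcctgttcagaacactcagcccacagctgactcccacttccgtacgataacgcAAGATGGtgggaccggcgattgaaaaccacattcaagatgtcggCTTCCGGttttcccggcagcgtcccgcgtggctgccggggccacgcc

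The Mrpl43 stretch held 2 ETS matches on the plus strand of the gene. The Mrpl52 stretch held 1 ETS match, on the other strand, and a further match lies just after the start, beyond the bases printed. Of these 3 members, Mrpl34 and Mrpl43 rose under the trimmed mean (0.83 and 0.59, and 0.27 and 0.03 under total counts alone). Mrpl52 fell (-0.52, and -1.07 under total counts alone). They were chosen by their direction, so this contrast was set by the choice and says nothing about the motif. Exons of Mrpl43 share 33.4% of their bases with Twnk on the other strand.

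Mitoribosomal proteins that carry other names were Dap3, Ptcd3, Chchd1 and Aurkaip1 of the small subunit and Gadd45gip1 of the large subunit. Aurkaip1 rose from 31.1 ± 1.46 to 41.9 ± 3.52 CPM (log2 fold change 0.43, SE 0.12, adjusted p = 0.0145) and Ptcd3 fell from 51.3 ± 3.46 to 38.7 ± 4.31 CPM (log2 fold change -0.41, SE 0.13, adjusted p = 0.0223). Dap3, a GTP-binding protein of the small subunit, was at 58.5 ± 2.76 and 69.1 ± 6.54 CPM (log2 fold change 0.24, SE 0.12, adjusted p = 0.137), Chchd1 at 14.7 ± 2.96 and 15.2 ± 3.12 CPM (log2 fold change 0.04, SE 0.20, adjusted p = 0.881) and Gadd45gip1 at 15.1 ± 1.02 and 11.9 ± 1.60 CPM (log2 fold change -0.34, SE 0.15, adjusted p = 0.0866), and none of these 3 passed. Under total counts alone, 0 of these 5 genes were higher and 3 were lower, and all 5 values, that of Aurkaip1 included, were below 0 (-0.96 to -0.14). Of the RNAs of the mitochondrial ribosome, mt-Rnr1 of the small subunit was at 741, 547, 628 and 412 CPM in Low and 394, 438, 375 and 244 CPM in High and fell (log2 fold change -0.69, SE 0.21, adjusted p = 0.0208), and mt-Rnr2 of the large subunit was at 1163, 902, 998 and 841 CPM in Low and 849.8, 814, 745 and 562 CPM in High and did not pass (log2 fold change -0.40, SE 0.17, adjusted p = 0.0817). The fractions overlapped for both RNAs, and under total counts alone both were called lower.

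Factors that assemble the mitochondrial ribosome had a lower median than its proteins. Of 25 tested, 1 rose and 7 fell, with a median log2 fold change of -0.40. Mrm3, which methylates the large ribosomal RNA, went from 15.8 ± 2.698 to 4.75 ± 1.03 CPM (log2 fold change -1.74, SE 0.16, adjusted p = 2.96e-05), and Gtpbp10, a GTPase of large-subunit maturation, from 8.47 ± 1.16 to 4.23 ± 1.16 CPM (log2 fold change -0.997, SE 0.23, adjusted p = 0.0048). Mpv17l2, an inner-membrane protein, was the 1 that rose (log2 fold change 0.74, SE 0.24, adjusted p = 0.0294), although under total counts alone 0 rose and 22 fell. Among 15 factors of mitochondrial translation, 2 rose and 4 fell, with a median of -0.14, where total counts alone gave 0 higher, 11 lower and a median of -0.71. The release factors Mtrf1l (-1.07) and Mtrf1 (-1.07) fell most, and Gfm2, which helps to recycle ribosomes (0.60), and Taco1, an activator of translation (0.57), rose under the trimmed mean.

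The products that mitochondrial ribosomes make and the proteins that join them were set beside the members. Of 13 messages encoded in mitochondria, 1 rose under the trimmed mean, mt-Nd5 (0.51), and 0 fell, with a median of -0.03, where total counts alone gave 0 higher, 10 lower and a median of -0.60. Of 83 nuclear genes of the respiratory chain, 29 rose and 4 fell, with a median of 0.32, where total counts alone gave 1 higher, 28 lower and a median of -0.23. Ndufc1 of complex I (0.99) and Uqcrq of complex III (0.92) rose most and Cox6b2 (-3.54) and Cox7a2l (-0.92) fell most. Cox6b2 was at a low level, with means of 2.86 CPM in Low and 0.242 CPM in High, where it had 4 to 7 counts in a library. Of 87 cytosolic ribosomal proteins, 1 rose and 22 fell, with a median of -0.32, where total counts alone gave 0 higher, 73 lower and a median of -0.89. Many of these genes have near-identical copies. No difference between these lists and the mitochondrial ribosomal proteins was tested.

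**Figure D5:**
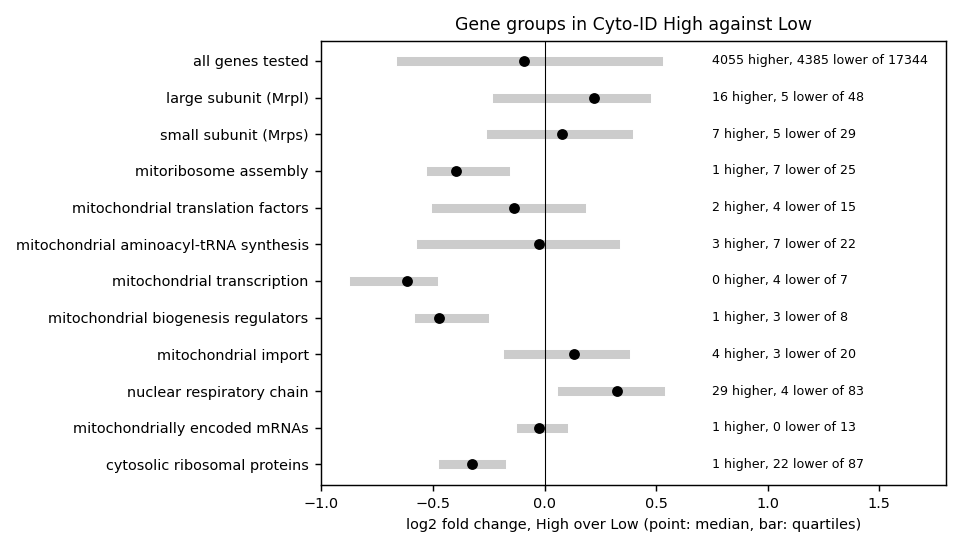
Median log2 fold change of High over Low (point) and quartiles (grey bar) of the tested genes in each list under trimmed-mean scaling, with the number past the threshold in each direction at the right. The large-subunit median (0.22) lies between those of the assembly factors (-0.40) and the nuclear respiratory chain (0.32), and under total counts alone every list is lower by about 0.55.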

How the data were processed

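The deposited file is a matrix of unnormalised counts, 1 row per gene symbol and 1 column for each of 8 libraries, which sum to 26285150 to 29301054. Per the submitters' processing notes, STAR 2.7.3 and the build GRCm38 were used, and DESeq2 is named without a role. The counting tool, annotation, strandedness and filters are not given in the sources used here. Columns were matched to samples by animal and fraction.

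Low counts were filtered by filterByExpr (edgeR 4.0.16 in R 4.3.3, grouped by fraction) and library sizes adjusted by the trimmed mean. High was tested against Low over the 8 libraries with glmQLFit and glmQLFTest, two-sided, with sex as covariate and Benjamini-Hochberg adjustment over 17344 genes. SEs come from the fold change and its F statistic. The prior count in log2 CPM was 2. The 4 animals per fraction are the replicates, and intervals cover the spread between them. Libraries of a name were taken as 1 animal's pair. Their deviations correlated across genes by 0.43, 0.32, -0.02 and 0.28 for Female1, Female2, Male1 and Male2, so the pairing of Male1 rests on its name. High Male1 correlated more with Low Female1 (0.35). No libraries of a fraction agreed within sampling noise (chi-square per degree of freedom at least 17.7).

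The members, lists and tests were chosen with earlier results of these data known. Members named were the 4 that rose and the 4 that fell most in each subunit, past the threshold and with 1 sign in all 4 animals, the 3 with the highest level per exon length in each, and 12 chosen for their role. Of each other list, the 2 highest and 2 lowest past the threshold were named. Positions, lengths, GC content and overlaps came from GENCODE release M21, which held all 78 members, pseudogene copies from BLAST 2.17.0 on its transcripts, and promoters from RefSeq. The copy search, the motifs and the promoters printed were chosen after the data were seen. The fit was also run on simulated counts, and the outcome of that run is not given here. Alternatives were relative log expression factors, total counts alone, no filter, a minimum of 10 counts per library, no covariate, DESeq2 1.42.0, limma-voom (limma 3.58.1), robust dispersion, the replicate block, each library left out, and copies summed.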

Additional observations from a re-analysis of the deposited data

Results flagged for a closer look

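Across 66 groups of 4 libraries, 3 held a library whose gap to the nearest other exceeded Dixon's 95% critical value for a gap as a part of the group's range, and chance gives about 1 in 20. Mrpl50 was at 13.0 CPM in High Male2 against 17.8 to 18.5 CPM in the other High libraries. Mrps18c was at 8.69 CPM in High Male2 against 13.1 to 13.8 CPM. Mrpl41 was at 13.3 CPM in High Male1 against 17.4 to 17.8 CPM.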

How the results depend on the processing

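Among the 27 members named, 8 kept their direction and side of the threshold under every alternative and 13 under every alternative but total counts alone. Total counts alone gave 3 members higher and 38 lower (12.6% and 49.1% of all genes tested), a large-subunit median of -0.35 and a small-subunit median of -0.46, and it reversed Mrpl54 (-0.14), Mrps34 (-0.0242), Mrps12 (-0.10), Mrps7 (-0.11), Mrpl10 (-0.34), Mrpl11 (-0.42), Mrps18a (-0.15) and Mrps18c (-0.20). This follows from its scaling, which moved the median of all genes by -0.55. Without a filter on low counts 13 members rose and 7 fell, 25.6% of 78 beside 46.8% of the 17344 genes, and the risers lost were Mrpl16, Mrpl17, Mrpl28, Mrpl36, Mrpl54, Mrps12, Mrps14, Mrps24, Mrps6 and Mrps7. The fallers lost there were Mrpl19, Mrps16 and Mrps30. With the replicate block 16 fell. The cause was not tested for either. The paired fit lost no call. Mrpl58 was at 0.0132 with relative log expression factors and 0.0127 with DESeq2.

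With each library left out in turn, 16 to 25 members rose and 6 to 9 fell, so that 31.2% to 40.3% of members were called beside 41.5% to 46.2% of all genes. Mrps18b ran from -0.169 to 0.0279, Mrpl58 from -0.132 to 0.0154 and Mrpl44 from -0.259 to 0.0130, and the difference between subunits from 0.0793 to 0.104. That difference uses no fit, so the replicate block and other tools have no value for it. With a library left out, 7269 to 8106 genes were called over all those that the filter then kept, whereas the shares above are of the 17344 genes. The 2 females and 2 males per fraction, unknown strandedness and shared pseudogene reads limit these values, and Mrps36, with 42 to 89 counts, is among the least precise.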

Other observations

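Genes that make or regulate mitochondria outside the ribosome were also measured, all under the trimmed mean. Of 7 genes of mitochondrial transcription and replication, 0 rose and 4 fell in High, with a median log2 fold change of -0.62, where total counts alone gave 0 higher and 7 lower. Twnk, the mitochondrial helicase, went from 20.1 ± 5.49 to 8.92 ± 0.837 CPM (log2 fold change -1.16, SE 0.19, adjusted p = 0.000824) and Tfam, which packs mitochondrial DNA, from 26.6 ± 1.42 to 13.8 ± 2.69 CPM (log2 fold change -0.96, SE 0.15, adjusted p = 0.000646). Of 8 regulators of mitochondrial biogenesis, 1 rose and 3 fell, where total counts alone gave 0 higher and 7 lower. Esrra rose (0.83) under the trimmed mean, and Ppargc1b (-1.94) and Nrf1 (-0.67) fell most.

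Of 22 genes that charge mitochondrial tRNAs, 3 rose and 7 fell, with a median of -0.03, where total counts alone gave 1 higher and 13 lower. Gars (1.55), whose enzyme also serves the cytosol, and Rars2 (0.91) rose most, and Wars2 (-1.38) and Aars2 (-1.14) fell most. Of 20 genes of protein import, 4 rose and 3 fell, with a median of 0.13, where total counts alone gave 0 higher and 12 lower. Timm13 (0.65) and Timm23 (0.52) rose most and the chaperonin Hspe1 (-0.88) and Timm9 (-0.76) fell most. Among cytosolic ribosomal proteins Rps4l was the 1 that rose (0.98; under total counts alone 0 genes of the list rose), while Rpl12 (-0.75) and Rps27 (-0.74) fell most of those past the threshold.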
